A study of Mus musculus with 8 samples.

Results

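Hybrid IIx/IIb myonuclei are nuclei of muscle fibres that hold messenger RNA of 2 fast myosin heavy chain genes at once, Myh1 (the IIx chain) and Myh4 (the IIb chain). In single-nucleus RNA sequencing of mouse gastrocnemius, a mixed calf muscle, 496 of 47059 retained nuclei of the 4 10x Genomics libraries were of this kind, out of 64803 retained nuclei in all 8 libraries. They were chosen by counts of unique molecular identifiers (UMIs), the tags that let each captured RNA molecule be counted once. Nuclei were retained when they held above 200 but below 6000 detected genes and when mitochondrial UMIs stayed under 6%. A retained nucleus was a member when the summed UMIs of Myh1, Myh2, Myh4 and Myh7 were at least 8 and at least 0.3% of all its UMIs, when Myh1 and Myh4 each made up 30% to 70% of that sum, and when Myh2 and Myh7 were each under 20%. The levels of these 4 genes therefore chose the members and are given only as a description.

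The study compared wild-type mice in 4 groups, each with 1 10x library and 1 library of a second droplet system. Young mice were 3 months old and Old mice 20 months old. Running mice were trained on a treadmill for 2 months from an age of 11 months, and Sedentary mice were their untrained controls, whose age at sampling is not given separately in the methods. The number of animals behind a library is not given in the sources used here, so the spread between libraries may be technical and animals of 1 library cannot be told apart.

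A skeletal muscle fibre is a syncytium with many nuclei, and its contraction speed and metabolism follow largely from the myosin heavy chain it makes. In rodent limb muscle the chains form a series from slow (Myh7) over IIa (Myh2) and IIx (Myh1) to IIb (Myh4), with oxidative metabolism at the slow end and glycolytic metabolism at the fast end. Most nuclei of a fibre transcribe 1 adult chain, and fibres or nuclei with 2 chains are called hybrid.

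Myh1 and Myh4 are neighbours in the skeletal myosin cluster of chromosome 11 on GRCm38. In the GENCODE vM21 annotation Myh2 spans 67171027 to 67197517, Myh1 67200052 to 67224575 and Myh4 67238029 to 67260446, all on the plus strand, while Myh7 lies on chromosome 14. The 250 bases before the RefSeq transcription start of each gene (GRCm38.p6, plus strand, 5′ to 3′) are shown because these 2 genes define the nuclei. Capitals mark every run of at least 10 bases that the windows share in the same order, 55 bases in each.

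Myh1 promoter, chr11:67199852-67200101: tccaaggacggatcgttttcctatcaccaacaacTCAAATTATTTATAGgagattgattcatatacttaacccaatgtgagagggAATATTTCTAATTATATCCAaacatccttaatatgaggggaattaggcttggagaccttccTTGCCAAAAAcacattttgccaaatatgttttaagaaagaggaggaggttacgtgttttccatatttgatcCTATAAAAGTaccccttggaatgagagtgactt
Myh4 promoter, chr11:67237562-67237811: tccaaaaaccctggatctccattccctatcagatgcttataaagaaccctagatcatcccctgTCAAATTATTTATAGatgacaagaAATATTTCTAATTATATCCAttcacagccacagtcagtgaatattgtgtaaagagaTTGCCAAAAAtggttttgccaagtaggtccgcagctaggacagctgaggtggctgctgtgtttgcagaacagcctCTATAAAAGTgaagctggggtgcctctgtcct

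The run CTATAAAAGT, which holds a TATA box, began 33 bases before the start in Myh1 and 32 before it in Myh4. Its letters stood in 15 of 32851 promoter windows of the RefSeq table (0.0457%), counted on either strand as for the other runs. The 20-base run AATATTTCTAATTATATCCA began 165 and 163 bases before the start, and 3 windows held it (0.00913%), those of Myh1, Myh2 and Myh4. The run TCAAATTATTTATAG stood 216 and 187 bases before the start and in the window of Myh8, the perinatal chain, besides these 2 genes. The run TTGCCAAAAA stood in 24 windows (0.0731%). These matches describe letters and not binding.

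The 10x libraries held 11686 (Old), 11795 (Young), 12991 (Running) and 10587 (Sedentary) retained nuclei, with a median of 1664 UMIs per nucleus in Sedentary and 2790 to 3001 in the other 3. The members numbered 41 for Old, 128 for Young, 219 for Running and 108 for Sedentary. They are compared below with 19741 type IIb nuclei (the same floors with Myh4 above 70% of the sum) and 1836 type IIx nuclei (Myh1 above 70%). The libraries also differed in other fibre classes, since slow nuclei numbered 124 in Old and 255 in Sedentary but 0 in Young and 5 in Running, and IIa nuclei 568, 631, 50 and 202 in the same order. Pairs of 10x libraries shared between 30 and 46 cell barcodes, and 0 of these belonged to hybrid nuclei. With 1 10x library per group, group and library cannot be told apart.

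Between the pure classes, the hybrids filled the thin middle of the distribution of the Myh1 share. Of the nuclei past the floors with Myh2 and Myh7 each under 20% in Running, 6278 had under 10% Myh1 among Myh1 plus Myh4 UMIs and 578 had over 90%, while each 10% bin between 30% and 70% held 33 to 71 nuclei. In Old these middle bins held 7 to 13 nuclei each, in Young 27 to 39 and in Sedentary 23 to 33. The middle was sparse in every library. In Young the bin from 50% to 60%, with 39 nuclei, stood above the bins from 20% to 30% (24 nuclei) and 70% to 80% (10 nuclei), while in Running the bins from 50% to 80% held 71, 66 and 71 nuclei and no such rise was seen.

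**Figure D1:**
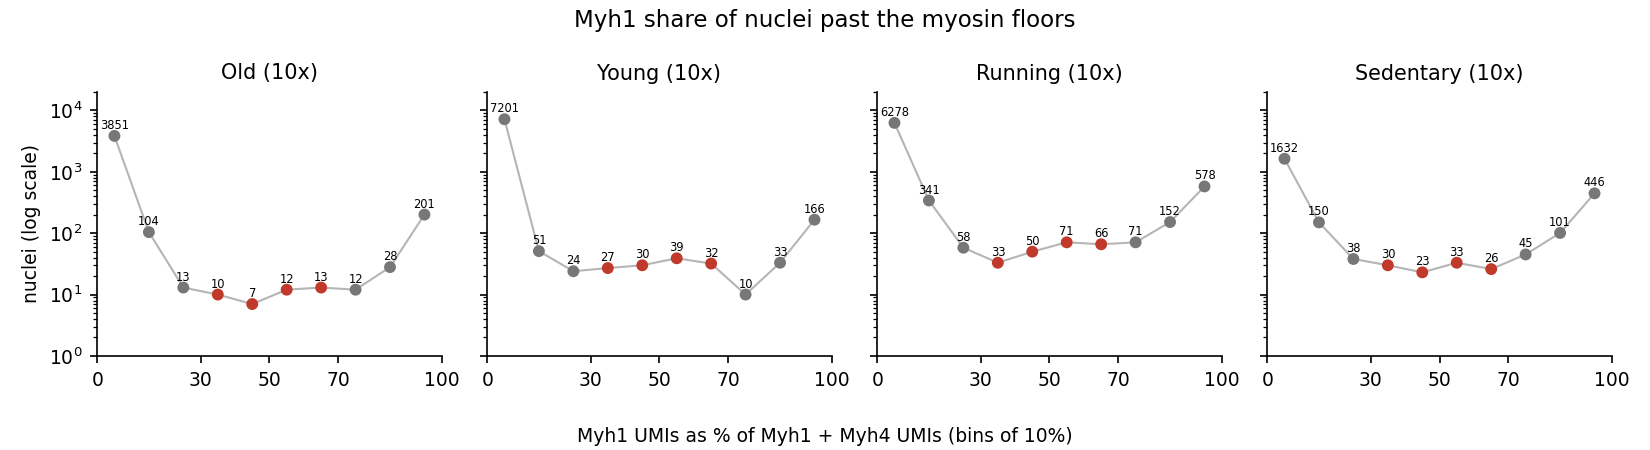
Number of nuclei past the myosin floors with Myh2 and Myh7 each under 20% (log axis) against the Myh1 share of their Myh1 plus Myh4 UMIs in bins of 10%, 1 panel per 10x library, with the bins from 30% to 70% in red. Type IIb nuclei fill the leftmost bin (1632 to 7201 nuclei), type IIx nuclei the rightmost (166 to 578), and the red bins hold between 7 and 71 nuclei.

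Single members show what the rule picked. The Old nucleus with the most myosin UMIs held 63 of Myh1 and 98 of Myh4 among 19290 UMIs. The corresponding Young nucleus held 41 and 56 (with 1 of Myh2) among 13163, the Running nucleus 79 and 37 among 12844, and the Sedentary nucleus 40 and 22 among 14008. Of the 496 members 318 had 20 or more myosin UMIs, 82 had 50 or more and 6 had 100 or more. For 453 members the exact 95% binomial interval of the Myh1 share lay within 10% to 90%, and for 274 it lay within 20% to 80%. These intervals rest on the same UMIs that chose the members and cover counting error only, so they are no separate evidence of mixing. Sedentary, the shallowest library, had only 22 of 108 members with 20 or more myosin UMIs.

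The median Myh1 share per member was 50.6% for Old, 50% for Young, 53.3% for Running and 50% for Sedentary. Myh1 UMIs outnumbered Myh4 UMIs in 261 members, Myh4 led in 203 and both were equal in 32. Other chains were nearly absent by the rule and beyond it, since Myh2 was at 0 in 442 members and Myh7 at 0 in 487. Near the limits, 44 members had a Myh1 share of 30% to under 35% and 72 nuclei just outside had 25% to under 30%. For the Myh4 share these numbers were 61 inside and 73 outside. Members with 8 to 9 myosin UMIs numbered 43, against 63 nuclei with 6 to 7 that met the other limits. For myosin as a share of all UMIs, 22 members had 0.3% to 0.35% and 21 nuclei outside had 0.25% to 0.3%. The limit on Myh2 and Myh7 kept out 10 nuclei.

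Per 10000 UMIs, hybrid nuclei held 31.8 Myh1 UMIs for Old, 41.1 for Young, 33.1 for Running and 23.9 for Sedentary. Type IIx nuclei held 60.8, 81.6, 62.6 and 49.3 in the same order. Myh4 stood at 28.5, 41.9, 29.4 and 23 per 10000 in hybrids against 52.4, 76.2, 61.3 and 44.4 in type IIb nuclei. Each gene was below its level in the class it dominates, and both together gave a total near that of the pure classes. The limits on shares favour this placing and the floors bound the totals from below, so these values only describe the selection.

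Myh4 UMIs were also found in nuclei of cells that should lack the transcript. Among nuclei with markers of fibro-adipogenic progenitors (FAPs, stromal cells that do not make sarcomeres), 60.3% for Old, 59.7% for Young, 79% for Running and 47.7% for Sedentary held at least 1 Myh4 UMI, at median depths of 2253, 2760, 2033 and 1384 UMIs. Myh1 was found in 10.7%, 4.66%, 19.7% and 20% of them. Endothelial and FAP nuclei together held 9.03 to 16.1 Myh4 UMIs per 10000, and 3.54% to 11.7% of either type passed the myosin floors, so that free RNA and droplets shared with a myonucleus cannot be told apart here. The Myh4 level of the hybrids is fixed from below by the rule and was not compared with this background. The complete rule was met by 2 of 4140 such nuclei for Old (0.0483%), 4 of 2506 for Young, 5 of 2810 for Running and 1 of 858 for Sedentary. The interval of the hybrid share lay above that of this background in every library, and the closest were those of Old (0.252% to 0.476% against 0.00585% to 0.174%, exact 95% binomial intervals). Most endothelial and FAP nuclei failed the myosin floors, so this contrast reflects the floors and not only the mixing of Myh1 with Myh4. FAP nuclei past the floors numbered 436 (Old), 247 (Young), 278 (Running) and 35 (Sedentary). Of these 2, 4, 4 and 0 met the rule. Endothelial nuclei past the floors numbered 27, 23, 26 and 7, of which 0, 0, 1 and 1 met the rule. Whether hybrids exceed this background past the floors was not tested. After this background was subtracted from the myosin UMIs, the shares were 0.145% for Old, 0.865% for Young, 0.747% for Running and 0.368% for Sedentary.

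The label of the class was checked against other markers. Myofibre markers summed to 890, 785, 897 and 923 UMIs per 10000 in the hybrids of Old, Young, Running and Sedentary, close to the 815 to 938 of type IIb nuclei. The FAP list summed to 3.74, 2.58, 2.94 and 1.39 per 10000, below type IIb nuclei in all 4 libraries, against 60.3 to 104 in the endothelial and FAP nuclei. Endothelial markers stood at 0.225 to 0.886 and macrophage markers at 0.266 to 0.636. By these lists the members were myofibre nuclei.

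Depth and doublet scores differed between hybrids and pure classes in part of the libraries. The median UMI count of hybrids was 6447 for Old, 3709 for Young, 4475 for Running and 2422 for Sedentary, against 3843, 3356, 3406 and 2788 in type IIb nuclei and 4177, 3125, 3736 and 2794 in type IIx nuclei. Of the Old hybrids 53.7% lay above the 90th percentile of their library, against 15.4% of the type IIb nuclei. Doublet scores (Scrublet) in the top 6% of the library were held by 19.5% of hybrids for Old, 6.25% for Young, 16.4% for Running and 14.8% for Sedentary, against 6.4%, 7.19%, 6.26% and 4.51% of type IIb nuclei. Old hybrids thus stood apart in depth, Young hybrids were near the type IIb nuclei in both measures, and Sedentary hybrids were shallower than both pure classes. Droplets that hold a type IIx and a type IIb nucleus would meet the rule, and their part in the results was not tested.

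The share of hybrid nuclei differed between the 10x libraries. Hybrids made up 0.351% of retained nuclei for Old (exact 95% binomial interval 0.252 to 0.476), 1.09% for Young (0.906 to 1.29), 1.69% for Running (1.47 to 1.92) and 1.02% for Sedentary (0.838 to 1.23). Old was lowest and Running highest, and Young and Sedentary could not be separated by their intervals, which cover counting error only. Of nuclei past the myosin floors the shares were 0.801%, 1.66%, 2.73% and 2.92%. Of the hybrid, type IIx and type IIb nuclei together they were 0.964%, 1.68%, 2.85% and 4.3%. Old stayed below Young under each denominator, whereas the order of Running and Sedentary turned with it.

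**Figure D2:**
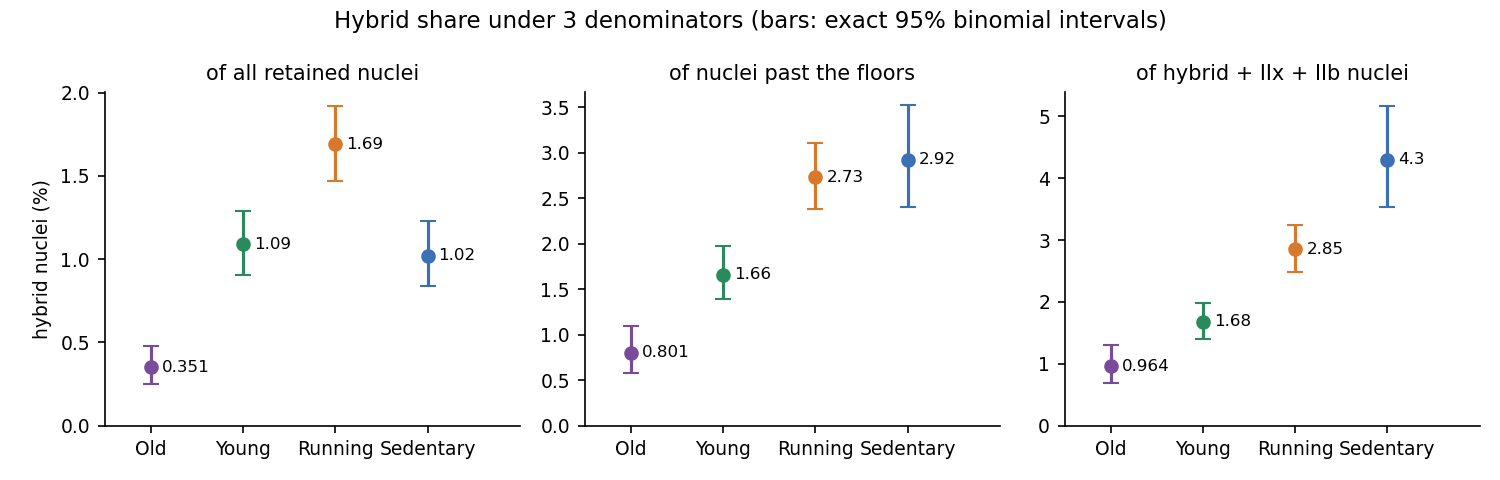
Hybrid nuclei as a percentage of all retained nuclei, of nuclei past the myosin floors, and of hybrid, type IIx and type IIb nuclei, with exact 95% binomial intervals, for 1 10x library per group. Old is lowest in each panel (0.351%, 0.801% and 0.964%), and Running lies above Sedentary in the first panel only (1.69% against 1.02%).

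Depth touched these shares. In nuclei thinned to 2000 UMIs the shares were 0.385% (Old), 1.06% (Young), 1.92% (Running) and 1.29% (Sedentary), against 0.472%, 1.25%, 2.22% and 1.62% of the same nuclei before thinning. Without the top 6% of doublet scores they were 0.3%, 1.08%, 1.5% and 0.925%. Among nuclei with fewer UMIs than the type IIb median of their library, a setting added after the data were seen, they were 0.0875%, 0.741%, 0.887% and 0.861%. Old was the lowest in each of these settings. With at least 20 myosin UMIs, however, Sedentary was the lowest at 0.208% and Old stood at 0.291%, and after background subtraction Young (0.865%) was above Running (0.747%).

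Replicated over both library sets, the difference did not pass. In an edgeR test on numbers of nuclei with group and library set as terms, Old minus Young was −0.74 on the log2 scale (SE 1.86, Benjamini-Hochberg adjusted p = 0.997) and Running minus Sedentary 0.28 (SE 1.85, adjusted p = 0.88). Without the Old 10x library the first was 0.10, and without the Running 10x library the second was −1.21, so neither direction held. With at least 20 myosin UMIs they were −1.88 (SE 0.92) and 1.90 (SE 0.94), and neither passed (edgeR Benjamini-Hochberg adjusted p = 0.58 and 0.49). In the second set the rule itself was met by 7.31% of nuclei for Old, 9.09% for Young, 3.12% for Running and 4.89% for Sedentary, with Myh4 UMIs in 100% of FAP nuclei of each library. Its endothelial and FAP nuclei met the rule in 4 of 38 cases in Old (10.5%) and 7 of 93 in Young (7.53%), shares at or near those of all nuclei, so a hybrid share above background was not detectable there. In Running the rule was met by 0 of 65 such nuclei, with an exact 95% binomial interval up to 5.52%. In Sedentary it was met by 0 of 47, with an interval up to 7.55%.

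Genes outside the rule were then compared between classes to ask what else hybrid nuclei carry. UMIs were summed per 10x library and class, and the 12 sums were fitted together with library as a block (edgeR quasi-likelihood F-test, Benjamini-Hochberg adjustment over 9776 genes). Each library thus gave its own comparison, whatever its group. Against type IIb nuclei, 834 genes passed (8.53% of those tested), 500 higher in hybrids (5.11%) and 334 lower (3.42%). Against type IIx nuclei 124 genes passed (1.27%), 104 higher (1.06%) and 20 lower (0.205%). Type IIx and type IIb nuclei differed in 2566 genes (26.2%). Since the 3 classes share sums and the hybrid sums are the smallest (299103 UMIs for Old, 534255 for Young, 1172762 for Running and 338502 for Sedentary), the counts of the comparisons are not measures of distance. The count against type IIb nuclei was 500 without the Young and 550 without the Running library, and that against type IIx nuclei 74 and 46. Among nuclei with fewer UMIs than the type IIb median of their library, added after the data were seen, 400 and 1 genes passed. Without the top 6% of doublet scores 880 and 86 passed.

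The genes with the largest rise over type IIb nuclei included membrane, Z-disc and signalling genes. Atp1b1, which encodes a beta subunit of the sodium-potassium pump, stood at 344 counts per 1000000 UMIs (CPM) in Old hybrids, 309 in Young, 144 in Running and 133 in Sedentary. In type IIb nuclei it stood at 23.9, 22.6, 24.3 and 28 CPM, with no overlap between the classes. The log2 difference was 3.11 (SE 0.21, edgeR Benjamini-Hochberg adjusted p = 4e-08).

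Agbl1, a member of the carboxypeptidase family that trims glutamate from proteins, held 2053, 3073, 4546 and 3696 CPM in hybrids and 166, 309, 509 and 782 in type IIb nuclei. Its log2 difference was 3.02 (SE 0.17, edgeR Benjamini-Hochberg adjusted p = 6.4e-09). Actn2, the alpha-actinin of the Z-disc found in all fibre types, held 1174, 717, 339 and 511 CPM against 107, 71.7, 59.3 and 109, a difference of 2.83 (SE 0.18, edgeR Benjamini-Hochberg adjusted p = 3.1e-08). Hybrids of every library were above every type IIb sum for both genes.

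Fhl1, a LIM-domain protein of the sarcomere, varied between libraries by more than the other genes. It held 1080 CPM in Old hybrids, 367 in Young, 183 in Running and 818 in Sedentary, against 100, 24.4, 32.8 and 194 in type IIb nuclei, so that Running hybrids (183) were below Sedentary type IIb nuclei (194). Within each library hybrids were higher (log2 difference 2.88, SE 0.23, edgeR Benjamini-Hochberg adjusted p = 2.5e-07). Ptpn3, a protein tyrosine phosphatase, rose by 2.76 (SE 0.17) and Nrp1, a co-receptor for semaphorins and VEGF, by 2.72 (SE 0.23).

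The genes with the largest fall from type IIb to hybrid nuclei were mostly of low level. Mybph, a myosin-binding protein of fast fibres, stood at 13.4, 24.3, 38.4 and 5.91 CPM in hybrids and at 28.3, 90.2, 115 and 43.1 in type IIb nuclei (log2 difference −1.74, SE 0.19, edgeR Benjamini-Hochberg adjusted p = 1.3e-05). Smoc2, a matricellular protein, held 104, 31.8, 60.5 and 50.2 CPM against 275, 155, 129 and 146 (−1.57, SE 0.20, edgeR Benjamini-Hochberg adjusted p = 5.5e-05). It is also a member of the FAP marker list, whose sum was lower in hybrids than in type IIb nuclei in all 4 libraries, and the part of this in its fall was not tested. Casr, the calcium-sensing receptor, differed by −1.69 (SE 0.31) and the long RNA Gm19299 by −1.64 (SE 0.23). For Il1rapl2 the difference was −1.60 (SE 0.22), and 32 of its 70 UMIs in Running hybrids came from 1 nucleus.

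Compared with type IIx nuclei, hybrids carried more RNA of genes that type IIb nuclei express. Cadm1, a cell adhesion molecule, stood at 241, 183, 153 and 310 CPM in hybrids of Old, Young, Running and Sedentary and at 29, 34.9, 42.1 and 73.8 in type IIx nuclei (log2 difference 2.18, SE 0.22, edgeR Benjamini-Hochberg adjusted p = 3.9e-05). Type IIb nuclei held 526, 751, 342 and 617 CPM, so hybrids lay between the classes in each library. Pld5, a phospholipase D family member, was higher by 2.24 (SE 0.21), Slc4a10, a bicarbonate transporter, by 3.17 (SE 0.43) and Pla2g7, which hydrolyses platelet-activating factor, by 2.06 (SE 0.29). Igfn1, an immunoglobulin-domain protein of the Z-disc, differed by 3.80 (SE 0.74, edgeR Benjamini-Hochberg adjusted p = 0.013), but 38 of its 76 UMIs in Old hybrids came from 1 nucleus. Gm19299, lower than in type IIb nuclei, was higher than in type IIx nuclei by 2.24 (SE 0.33). In the second library set Cadm1 (−0.18) and Pla2g7 (−0.84) lay the other way. Type IIx sums of that set came from Old (41 nuclei) and Young (39 nuclei) only. Running (1 nucleus) and Sedentary (14 nuclei) held too few type IIx nuclei to enter.

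Only small falls from type IIx to hybrid nuclei passed. Ptpn3 fell by 0.98 on the log2 scale (SE 0.16), Atp1b1 by 0.83 (SE 0.19) and Agbl1 by 0.77 (SE 0.16), all 3 being genes that were higher than in type IIb nuclei. Zfp827 and Zfp46, zinc finger proteins, fell by 0.82 (SE 0.16) and 0.77 (SE 0.15). In the second library set, with type IIx sums from Old and Young only, Ptpn3 (0.42), Agbl1 (0.83), Zfp827 (1.17) and Zfp46 (0.87) lay the other way. Fndc1, which holds fibronectin type III domains, was below type IIx nuclei by 0.98 (SE 0.22, edgeR Benjamini-Hochberg adjusted p = 0.036) and stood at 20.1, 29.9, 28.1 and 17.7 CPM, against 74.6, 47.5, 57.5 and 20.9 in type IIx and 60.8, 40.6, 39.4 and 13 in type IIb nuclei. In Old, Young and Running it was thus lower in hybrids than in both pure classes, and in Sedentary it was not. Hybrids held few Fndc1 UMIs, however, with only 6 each in the Old and Sedentary sums. Among Young members 11 of 16 such UMIs came from 1 nucleus, and among Running members 16 of 33 came from 1 nucleus. The placing of Fndc1 below both classes therefore rests on few molecules. Of the 12 genes named against type IIx nuclei, 11 passed without the top 6% of doublet scores, 0 among nuclei with fewer UMIs than the type IIb median and 0 in the second set, where 5 kept their direction.

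**Figure D3:**
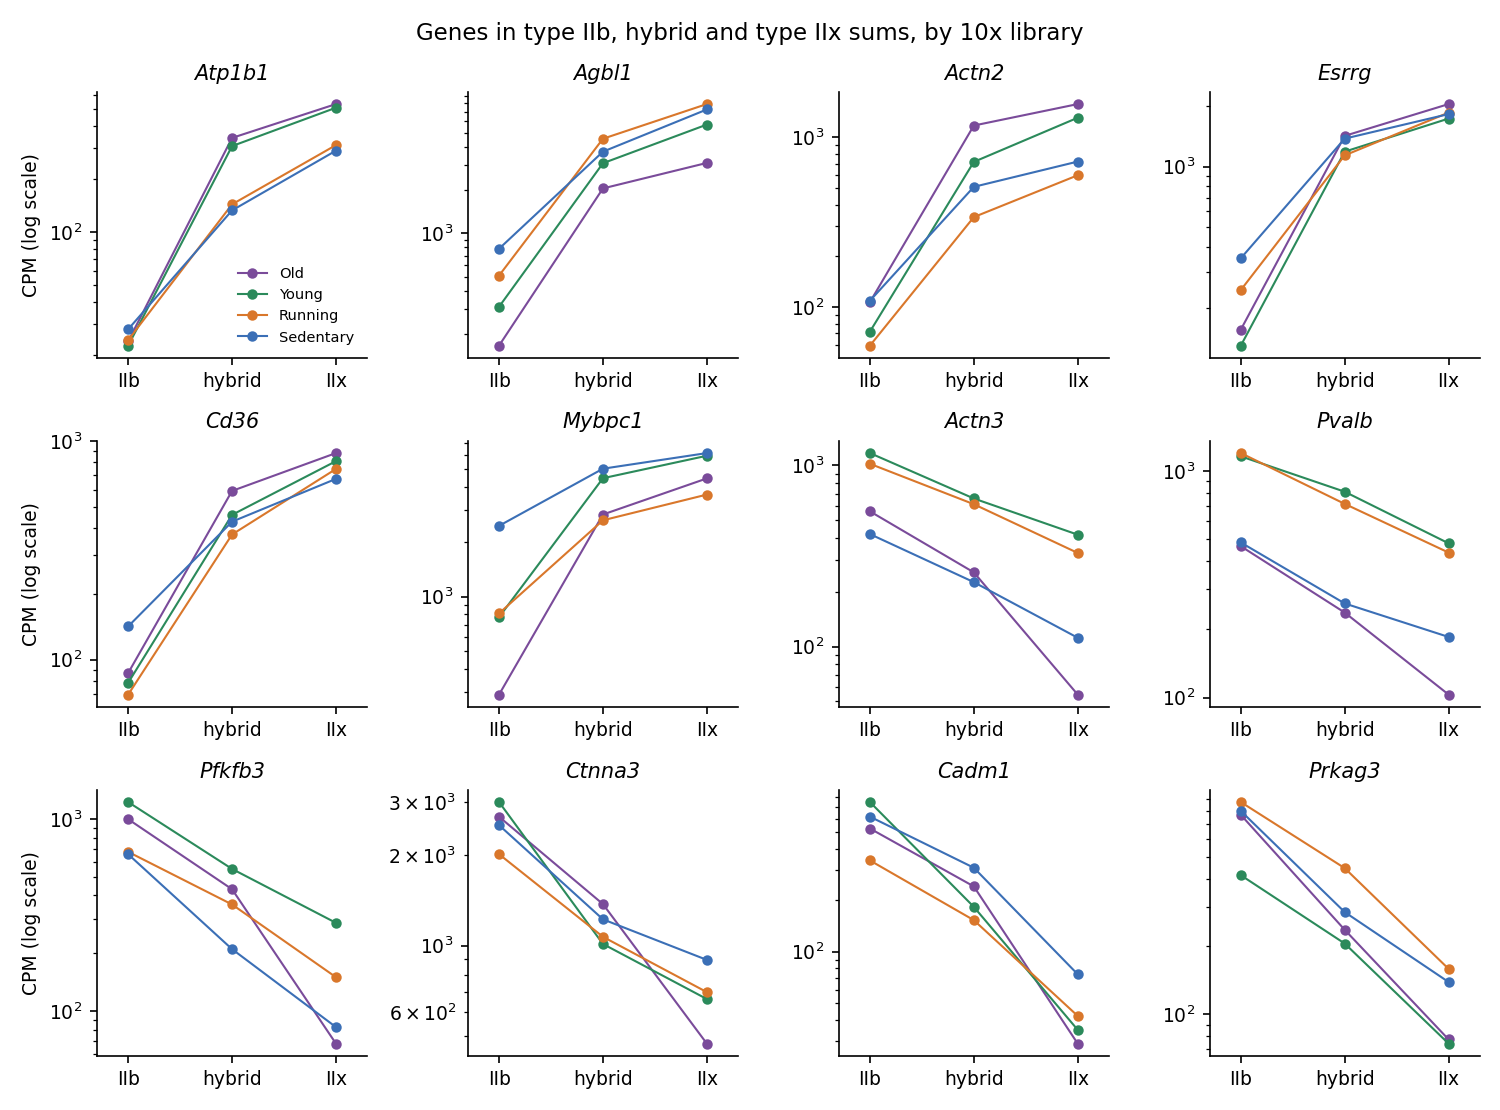
CPM (log axis) of 12 genes in the type IIb, hybrid and type IIx sums of each 10x library (1 point per library and class, lines join a library). In each panel and library the hybrid sum lies between both pure classes, as for Atp1b1 in Old with 23.9, 344 and 536 CPM.

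The genes of the contractile machinery showed the same placing between the classes. Of 19 fast contractile genes, 0 were higher and 11 lower in hybrids than in type IIb nuclei (3.42% of all genes were lower), with a median log2 difference of −0.47 beside −0.03 over all genes. The 11 were Mybph, Ampd1, Actn3, Pvalb, Mylk2, Mybpc2, Tpm1, Casq1, Myl1, Myoz1 and Ckm. Against type IIx nuclei 8 of the 19 were higher and 0 lower, with a median of 0.47 beside −0.00 over all genes.

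Actn3, the alpha-actinin of fast fibres, held 257, 657, 611 and 227 CPM in hybrids, 558, 1170, 1021 and 418 in type IIb and 54.4, 415, 329 and 112 in type IIx nuclei. Its log2 differences were −0.97 from type IIb (SE 0.18, edgeR Benjamini-Hochberg adjusted p = 0.0022) and 1.09 from type IIx nuclei (SE 0.20, adjusted p = 0.0078). Pvalb, the calcium buffer parvalbumin that speeds relaxation, was lower by 0.82 than in type IIb nuclei and higher by 0.80 than in type IIx nuclei (SE 0.12 for each). Mylk4, a myosin light chain kinase counted among IIb markers, differed by −0.47 (edgeR Benjamini-Hochberg adjusted p = 0.099) and 0.54 (adjusted p = 0.17) and passed neither test. Levels of Actn3 and Pvalb in Young and Running hybrids exceeded those in Old and Sedentary type IIb nuclei, so these values differed between libraries as well as between classes.

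Of 19 slow contractile genes 11 passed the filter on low counts, and 6 of these were higher than in type IIb nuclei with a median of 1.29 and 0 were lower. They were Actn2, Myoz2, Casq2, Mb, Mybpc1 and Ckmt2. Mb, the oxygen store myoglobin, stood at 117, 67.4, 124 and 67.9 CPM against 25.3, 10.3, 32.7 and 20.9 in type IIb nuclei (log2 difference 2.06, SE 0.31, edgeR Benjamini-Hochberg adjusted p = 0.00029). Ckmt2, the mitochondrial creatine kinase, rose by 1.29 (SE 0.16). The troponin and pump genes that mark slow fibres were not among the 6, as Tnnt1, the slow troponin T, stood at 0.853 to 6.69 CPM in hybrids and Atp2a2, the slow calcium pump, at 7.49 to 26.6 CPM against 13 to 28.6 in type IIb nuclei. Against type IIx nuclei 0 of the 11 passed in either direction (median −0.45).

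Genes of oxidative metabolism were higher in hybrids than in type IIb nuclei. Of 42 oxidative phosphorylation genes 18 passed upward and 0 downward, with a median log2 difference of 0.46. Of 23 fatty acid oxidation genes 15 passed upward and 0 downward (median 0.83), and of 20 genes of the tricarboxylic acid (TCA) cycle 6 and 0 (median 0.36). The share of all genes higher was 5.11%.

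Cd36, the fatty acid carrier of the sarcolemma, stood at 592, 460, 374 and 428 CPM in hybrids against 86.9, 78.4, 69.2 and 142 in type IIb and 882, 810, 746 and 672 in type IIx nuclei. It was higher than in type IIb nuclei by 2.28 (SE 0.17) and lower than in type IIx nuclei, with a log2 difference of −0.73 (SE 0.16, edgeR Benjamini-Hochberg adjusted p = 0.032). Cpt1b, which admits long-chain fatty acids to mitochondria, held 134, 86.1, 136 and 112 CPM against 53.2, 50.4, 81 and 66.8 in type IIb nuclei (0.82, SE 0.12). Pdk4, which restrains pyruvate entry into the TCA cycle, held 341, 61.8, 570 and 168 CPM against 60.3, 29.8, 155 and 65.2 (1.74, SE 0.17, edgeR Benjamini-Hochberg adjusted p = 3.6e-06). Between type IIx and hybrid nuclei 2 fatty acid oxidation genes passed, Cd36 and Hadha, both lower in hybrids. None of the oxidative phosphorylation or TCA cycle genes passed there by edgeR, and their medians were −0.32 and −0.23.

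Regulators of oxidative genes went the same way. Of 20 such genes 8 were higher than in type IIb nuclei (Esrrg, Esrrb, Rcan2, Ppara, Vegfa, Esrra, Ppargc1b and Ppargc1a) and 1 was lower (Prkag3). Esrrg, an orphan nuclear receptor of oxidative fibres, held 1421, 1187, 1138 and 1377 CPM against 156, 130, 245 and 352 (log2 difference 2.56, SE 0.18, edgeR Benjamini-Hochberg adjusted p = 1.1e-07). Ppara, a nuclear receptor that drives fatty acid oxidation and is also a marker given for IIa nuclei, rose by 1.87 (SE 0.14). Ppargc1a, the coactivator PGC-1 alpha, differed by 0.53 (SE 0.11), with 231, 371, 370 and 304 CPM in hybrids and 186, 234, 212 and 226 in type IIb nuclei. Prkag3, the gamma subunit of AMP kinase found in glycolytic fibres, stood at 237, 206, 445 and 284 CPM in hybrids between 767, 414, 874 and 798 in type IIb and 77.3, 74.1, 159 and 139 in type IIx nuclei.

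Glycolysis and glycogen genes were divided. Of 19 glycolysis genes 2 were higher than in type IIb nuclei and 6 lower (median −0.26), beside 5.11% and 3.42% of all genes. The higher ones were Ldhb and Pfkfb1, and the lower ones Pfkfb3, Gpd2, Pkm, Ldha, Gpi1 and Eno3. Ldhb makes the lactate dehydrogenase subunit of oxidative tissue and rose by 3.23 from a low level (SE 0.41), with 40.1, 15, 28.1 and 8.86 CPM in hybrids and at most 4.98 in type IIb nuclei.

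Ldha, the lactate dehydrogenase subunit of glycolytic fibres, held 114, 228, 185 and 100 CPM in hybrids, 186, 275, 245 and 126 in type IIb and 99.2, 127, 147 and 78.1 in type IIx nuclei. Hybrids were lower than type IIb nuclei by a log2 difference of −0.45 (SE 0.11, edgeR Benjamini-Hochberg adjusted p = 0.019), and the difference of 0.47 from type IIx nuclei did not pass (SE 0.12, adjusted p = 0.086). Pfkfb3, which makes an activator of phosphofructokinase, stood at 431, 550, 359 and 210 CPM against 999, 1227, 675 and 656 in type IIb and 67.6, 288, 150 and 82.4 in type IIx nuclei. Its differences were −1.28 (SE 0.20) and 1.49 (SE 0.21), and both passed.

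Of 15 glycogen genes 2 were higher than in type IIb nuclei (Gbe1 and Gys1) and 7 lower (Ppp1r3c, Phka1, Gyg, Pygm, Pgm1, Phkb and Phkg1), with a median of −0.34, beside the same shares of all genes. Among the lower ones Phka1, Phkb and Phkg1 form phosphorylase kinase and Pygm is the phosphorylase it activates. Pygm held 889, 1306, 1432 and 874 CPM against 1445, 1876, 1884 and 1432 in type IIb nuclei (log2 difference −0.63, SE 0.10, edgeR Benjamini-Hochberg adjusted p = 0.00048). Gbe1, the branching enzyme, held 873, 717, 464 and 1282 against 423, 395, 263 and 714 (0.84, SE 0.10).

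Among 38 regulators of fibre type 2 were higher than in type IIb nuclei, among them Six4, and 7 lower (Mafa, Camk2a, Eya1, Maf, Eya4, Sox6 and Ppp3ca), with a median of −0.03 equal to that of all genes, of which 5.11% were higher and 3.42% lower. Maf, a transcription factor of the large Maf family that acts on Myh4, stood at 582, 1381, 868 and 564 CPM in hybrids, 851, 2153, 1153 and 908 in type IIb and 195, 1119, 604 and 418 in type IIx nuclei. It passed against both classes (−0.63, SE 0.15, and 0.68, SE 0.16). Eya4, a transcriptional cofactor, held 605, 717, 567 and 1170 CPM and likewise passed against both (−0.55, SE 0.10, and 0.65, SE 0.11). Tbx15, a regulator of glycolytic fibres, differed by −0.12 (SE 0.10) and 0.03 (SE 0.10) and passed neither test.

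The remaining lists had medians against type IIb nuclei between −0.35 and 0.31, beside −0.03 over all genes, of which 5.11% were higher and 3.42% lower. Of 30 excitation and calcium genes 3 were higher and 7 lower (median −0.07), of 28 genes of the Z-disc and giant sarcomere proteins 5 and 3 (−0.01), of 18 genes of lactate handling and lactylation 3 and 1 (−0.07) and of 12 denervation genes 2 and 1 (0.31). Ttn, the giant spring protein titin, took 51902, 41931, 54215 and 52629 CPM in hybrids and 52200, 44581, 58287 and 51422 in type IIb nuclei. Of 8 DNA repair genes named by the study 0 were higher and 5 lower (median −0.35), and of 8 proteostasis genes 0 passed (median −0.14). The study picked these 16 genes on these samples, so they are not independent evidence of a direction. Of 3 other myosin heavy chain genes tested 1 was higher, Myh10, a non-muscle chain. Of the markers of other cells, 0 of 3 endothelial, 4 macrophage, 3 adipocyte, 1 Schwann cell, 8 neuromuscular junction and 4 myotendinous junction genes passed against type IIb nuclei in edgeR, 1 of 10 FAP and 1 of 2 mural cell genes were lower, and no gene of the muscle stem cell, T cell and tenocyte lists had enough counts to be tested. Of 8 myofibre markers 3 were lower.

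**Figure D4:**
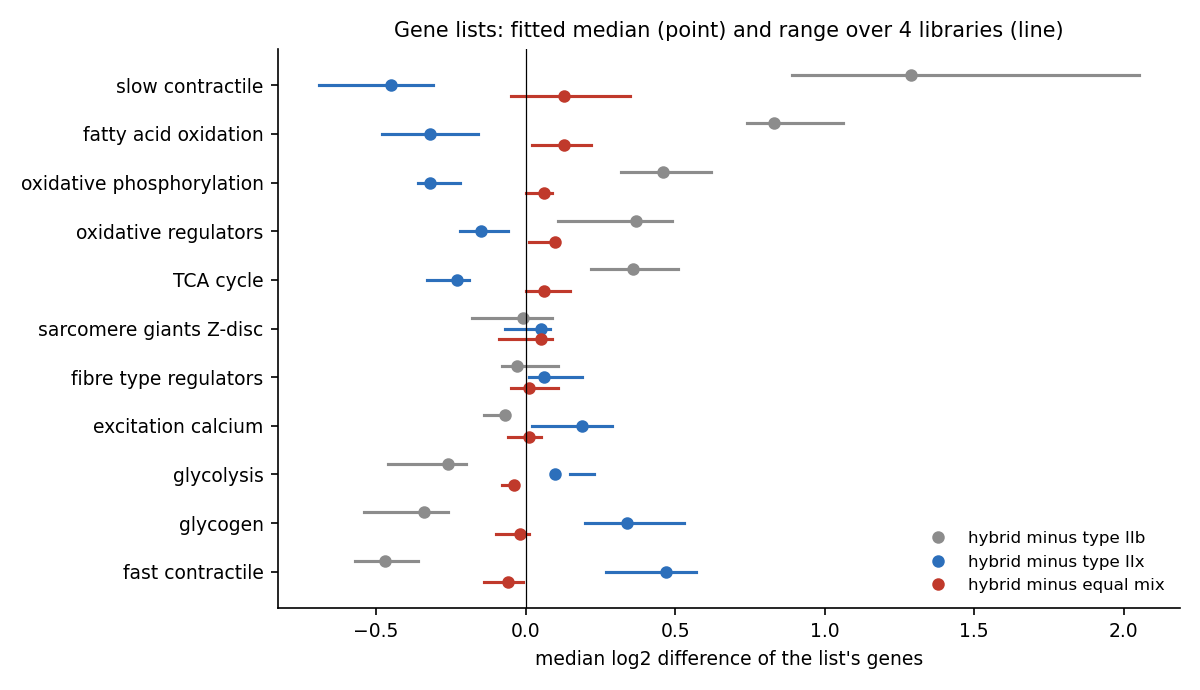
Median log2 difference of 11 of the 16 gene lists (points, fitted medians) with the range of the 4 libraries' medians (lines) for hybrids minus type IIb nuclei (grey), minus type IIx nuclei (blue) and minus an equal mix of both (red). Slow contractile (1.29) and fatty acid oxidation genes (0.83) lie highest and fast contractile genes (−0.47) lowest against type IIb nuclei, while the plotted medians against the equal mix lie between −0.06 and 0.13.

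The transcripts of the myosin cluster itself gave no passing difference. Myhas, an antisense RNA at 67211256 to 67237573 on the minus strand, overlaps Myh1 and ends just before Myh4. It stood at 411, 629, 466 and 349 CPM in hybrids, 300, 884, 723 and 375 in type IIb and 458, 394, 298 and 296 in type IIx nuclei. The log2 differences were −0.30 (SE 0.21, edgeR Benjamini-Hochberg adjusted p = 0.51) and 0.34 (SE 0.22, adjusted p = 0.65). In Young, Running and Sedentary the order ran from type IIb over hybrid to type IIx, and in Old it ran the other way. Whether strand was used in counting is not given in the sources used here, so reads of Myh1 and Myhas in their overlap cannot be told apart. The embryonic chain Myh3, the perinatal chain Myh8 and the extraocular chain Myh13 had at most 1 UMI in the hybrids of any library.

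A mixture of the pure classes was the next reference. On the log2 scale hybrids lay off the midpoint of both classes in 23 genes (0.235%), of which 22 were higher (0.225%) and 1 lower (0.0102%), led by Atp1b1 (1.14, SE 0.17), Agbl1 (1.12, SE 0.13), Actn2 (1.11, SE 0.15), Gm34455 (1.04, SE 0.16), Esrrg (1.02, SE 0.15) and Fhl1 (1.01, SE 0.19). A mix of 2 unequal levels lies above their log midpoint by construction, and the more so the farther they lie apart. Hybrids were therefore also set against an equal mix, in which the sums of both classes of a library were scaled to the same total and added. This fit was added after the data were seen.

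Against the equal mix 12 of 8701 genes passed (0.138%), 2 higher (0.023%) and 10 lower (0.115%), with 479 at an unadjusted p under 0.05 and 5 passing in DESeq2. Higher were Mybpc1 and Esrrg. Mybpc1, the slow myosin-binding protein C, held 2822, 4464, 2623 and 5034 CPM in hybrids, where type IIb nuclei held 290, 772, 809 and 2446 and type IIx nuclei 4452, 5929, 3630 and 6133 (log2 difference from the mix 0.30, SE 0.05, edgeR Benjamini-Hochberg adjusted p = 0.0028). Esrrg also differed by 0.30 (SE 0.06, edgeR Benjamini-Hochberg adjusted p = 0.018). Hybrids thus lay nearer to type IIx nuclei than the mix for these 2 genes.

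Most of the 10 lower genes were ones of which type IIb nuclei held more than type IIx nuclei. Ctnna3, the alpha-T-catenin of cell junctions, stood at 1374, 1013, 1070 and 1223 CPM in hybrids, between 2679, 2997, 2012 and 2512 in type IIb and 473, 665, 701 and 897 in type IIx nuclei (−0.45 from the mix, SE 0.07, edgeR Benjamini-Hochberg adjusted p = 0.0028). Sorbs2, an adaptor of the Z-disc, differed by −0.37 (SE 0.07), Prkag3 by −0.42 (SE 0.09), Pfkfb3 by −0.38 (SE 0.08), the long RNA 9530026P05Rik by −0.62 (SE 0.10) and Smoc2 by −0.76 (SE 0.14). Outside the rule for named genes, and named after their values were seen, were Gpd2, the mitochondrial glycerol phosphate dehydrogenase (−0.35, SE 0.06), Adamtsl1, a matrix protein (−0.66, SE 0.10), and Gsn. Gsn is the actin-severing gelsolin, and stood at 371, 82.4, 175 and 136 CPM in hybrids, 602, 190, 261 and 121 in type IIb and 631, 270, 212 and 148 in type IIx nuclei (−0.62, SE 0.12), so that it was below both pure classes in Old, Young and Running. FAPs also express Gsn and Smoc2, and the part of the lower FAP marker sum of hybrids in both differences was not tested. Ldha lay on the mix, with a difference of −0.02 (SE 0.10).

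These calls moved with the choice of nuclei. Without the top 6% of doublet scores 19 genes passed, and among nuclei with fewer UMIs than the type IIb median (added after the data were seen) 28 genes passed. With at least 20 myosin UMIs 2 passed, without the Young library 6 and without the Running library 5. Of the 8 genes named against the mix by the rule for named genes, 0 passed with at least 20 myosin UMIs. Likewise 0 of the 8 passed with Myh1 and Myh4 each at 40% to 60% or after background subtraction. All 8 kept their direction in these settings.

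Among the hybrids themselves the myosin ratio was compared with the other genes. Between the 261 Myh1-leaning and the 203 Myh4-leaning members 0 of 3280 genes passed (0%, edgeR), with 205 at an unadjusted p under 0.05 and 0 in DESeq2. Without the Young library 4 genes passed, without the Running library 6 and without the Sedentary library 11. The median log2 difference of 19 fast contractile genes, of which 18 were tested, was −0.17, and that of 24 oxidative phosphorylation genes tested was 0.10. All 4 libraries gave a negative median for the fast contractile genes, between −0.25 and −0.12.

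Atp1b1 and Cadm1 were followed along the Myh1 share. Nuclei past the floors with low Myh2 and Myh7 were divided at Myh1 shares of 5%, 30%, 50%, 70% and 95%, and CPM was averaged over the 4 libraries. Atp1b1 stood at 23.2 ± 3.03 CPM up to 5% (SD, n = 4), 49.1 ± 24.9 up to 30%, 216 ± 92.1 up to 50%, 246 ± 128 up to 70%, 361 ± 95.6 up to 95% and 439 ± 148 above. Cadm1 ran the other way, with 562 ± 171, 525 ± 148, 270 ± 78.7, 180 ± 92.1, 49 ± 26 and 41.3 ± 18.3 CPM (SD, n = 4). The largest step of Atp1b1 lay between the bins on either side of 30%. That of Cadm1 lay on either side of 70% on a log scale, but on either side of 30% in CPM (525 to 270). The bins were unequal, with 2407 nuclei from 5% to 30% and 237 from 30% to 50%. Since 30% and 70% are also limits of the rule, these steps do not locate a change along the Myh1 share.

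Single nuclei were also placed between the classes. An index was made of 100 genes higher in type IIx and 100 higher in type IIb nuclei, chosen on the pure classes alone, as the share of type IIx gene UMIs in the UMIs of all 200. Its median in hybrids was 57% for Old, 47.9% for Young, 47.6% for Running and 47.4% for Sedentary. Type IIb nuclei had medians of 10.5%, 9.39%, 12.1% and 14.7%, and type IIx nuclei 73.8%, 63.3%, 65.7% and 65.4%. Hybrid medians lay between those of the pure classes in all 4 libraries and nearer to type IIx nuclei. An equal mix of both classes need not fall halfway on this index, and its place was not computed.

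The spread of the index among hybrids was wide. Its 5th to 95th percentiles ran from 28.5% to 78.2% for Old and from 21.4% to 65.6% for Young. They ran from 20.5% to 65.1% for Running and from 18% to 70.7% for Sedentary. Of the 496 hybrids 347 lay above the 95th percentile of type IIb nuclei, 216 lay below the 5th percentile of type IIx nuclei and 69 met both. The window between these percentiles ran from 35.2% to 60.1% in Old, 34% to 43.4% in Young and 41.9% to 45.9% in Running. In Sedentary the percentiles were 46.2% and 45.6%, so that no nucleus could meet both. The count of 69 thus depends on how far the pure classes overlap and is not a measure of the hybrids alone. Myh4-leaning hybrids had lower medians than Myh1-leaning ones in each library, with 47.9% against 60.6% for Old, 40.5% against 52% for Young, 46.6% against 50% for Running and 42.7% against 50.5% for Sedentary.

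**Figure D5:**
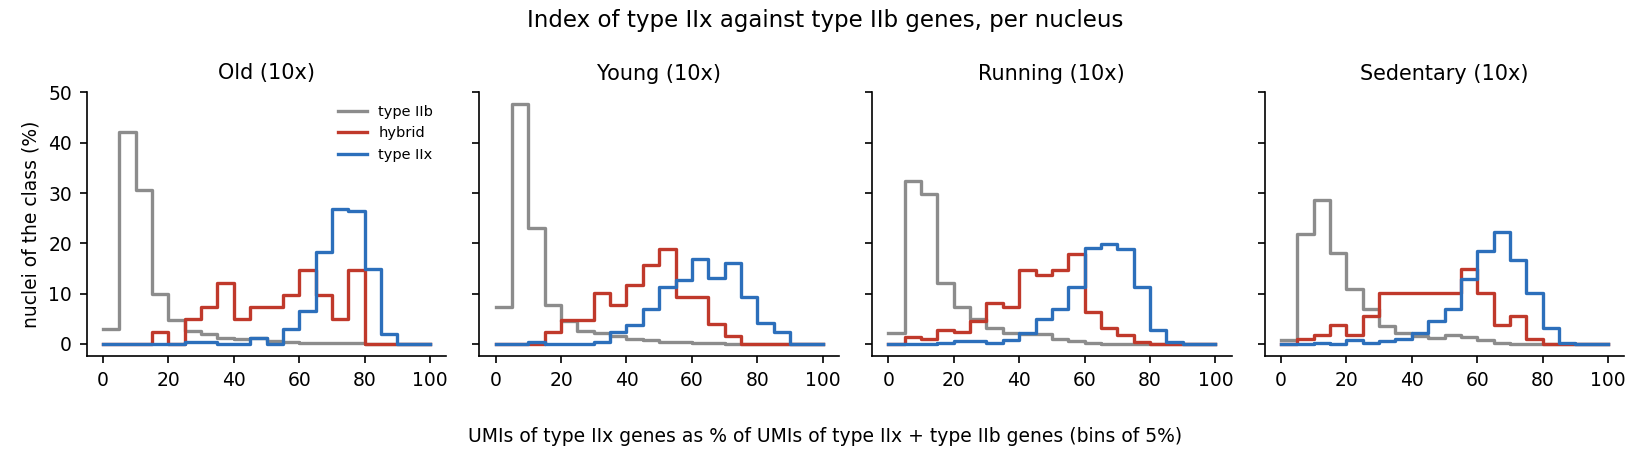
Distribution over nuclei of the share of type IIx gene UMIs in the UMIs of 200 type IIx and type IIb genes (bins of 5%), for type IIb (grey), hybrid (red) and type IIx nuclei (blue), 1 panel per 10x library. Hybrid nuclei spread between the pure classes, with medians of 47.4% to 57%.

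Between groups, hybrid sums of the 10x libraries were compared by ratios of CPM, with 1 library on each side and thus no test. Intervals are exact 95% intervals for counting error only. Of 1511 genes with at least 100 UMIs over the Old and Young sums, 126 differed by 2-fold or more (8.34%), 48 higher in Old (3.18%) and 78 lower (5.16%). Of 2525 genes in Running and Sedentary 214 did so (8.48%), 163 higher in Running (6.46%) and 51 lower (2.02%). In bulk sums of a class, fewer nuclei with a transcript and less of it per nucleus cannot be told apart, so numbers of nuclei are given where they matter.

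In Old hybrids, Pdk4 stood at 341 CPM against 61.8 in Young, a log2 ratio of 2.46 (1.89 to 3.08), and 25 of 41 nuclei against 19 of 128 held it. The ratio was 1.01 in type IIb and 1.95 in type IIx nuclei. Gsn stood at 371 against 82.4 CPM (2.17, 1.66 to 2.71), with UMIs in 40 of 41 Old and 31 of 128 Young hybrids, and the ratio was 1.66 in type IIb nuclei. The FAP marker sum stood at 3.74 per 10000 UMIs in Old against 2.58 in Young hybrids, with 5 or more such UMIs in 17.1% against 3.12% of them, and its part in the Gsn ratio was not tested. Lrrtm3, a synaptic adhesion protein, was higher by 2.51 (1.85 to 3.22). The Old hybrids held a median of 6447 UMIs and the Young ones 3709, and the part of depth in these numbers of nuclei was not tested.

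Other large ratios came from single nuclei. The long RNA Gm28653 had a ratio of 7.19 (5.32 to 10.25), resting on 2 Young UMIs, and 146 of its 164 UMIs in Old came from 1 nucleus. Dlg2, a synaptic scaffold, had 3.46, with 148 of 216 UMIs from 1 nucleus and a ratio of 0.32 in type IIb nuclei. Meg3, an imprinted long RNA, had −5.76 (−8.81 to −3.88), resting on 2 Old UMIs, with 168 of 193 Young UMIs from 1 nucleus. The long RNA 5730419F03Rik had 2.27 in hybrids but −1.75 in type IIb nuclei.

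Lower in Old were genes of fast fibres. Ampd1, the AMP deaminase of fast muscle, stood at 368 against 1439 CPM (−1.97, −2.27 to −1.68), Pvalb at 237 against 809 (−1.77, −2.15 to −1.40) and Mylpf, the fast regulatory light chain, at 314 against 915 (−1.54, −1.88 to −1.22). Of 17 fast contractile genes measured 5 were 2-fold lower and 0 higher, with a median of −0.93 beside −0.05 over all genes and −0.58 in type IIb nuclei. Ldha stood at 114 against 228 CPM (−1.01, −1.60 to −0.45), with ratios of −0.56 in type IIb and −0.36 in type IIx nuclei. Slc41a3, a magnesium transporter, was at 33.4 against 210 CPM (−2.65, −3.75 to −1.72), and Pdlim7, a Z-disc adaptor, at 73.6 against 260 (−1.82, −2.54 to −1.17). Adamtsl1 and the long RNA Gm11266 were lower by ratios of −1.91 and −2.06.

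Between Running and Sedentary the fast genes lay the other way. Mylpf stood at 611 against 100 CPM (2.61, 2.11 to 3.15), Acta1, the skeletal actin, at 1606 against 281 (2.52, 2.22 to 2.83) and Pvalb at 715 against 260 (1.46, 1.14 to 1.79). Of 18 fast contractile genes 8 were 2-fold higher in Running and 1 lower (Mylk4, −1.50), with a median of 0.93 beside −0.03 over all genes and 1.09 in type IIb nuclei. Of 12 glycolysis genes 2 were higher and 0 lower (median 0.60), beside 6.46% and 2.02% of all genes. Ldha stood at 185 against 100 CPM (0.88, 0.36 to 1.45), with ratios of 0.96 in type IIb and 0.91 in type IIx nuclei. The Sedentary library was shallower and held more slow and IIa nuclei than the Running library, and the part of this in the ratios was not tested.

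Among the genes with the largest ratios, Ankrd23, a stretch-responsive ankyrin repeat protein, stood at 767 against 44.3 CPM (4.11, 3.38 to 4.96) and was found in 200 of 219 Running and 12 of 108 Sedentary hybrids. Its ratio was 3.09 in type IIb and 3.77 in type IIx nuclei. Ppp1r3c, which targets phosphatase to glycogen, rested on 170 against 4 UMIs (3.62, 2.23 to 5.51) and Pnpla3, a lipase, on 129 against 4 (3.22, 1.83 to 5.12). Mdga1 (4.32, 2.44 to 7.38) and Abi3bp (4.16, 2.28 to 7.22) rested on 2 Sedentary UMIs each.

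Lower in Running were Mss51, a mitochondrial regulator of muscle metabolism, with 36.7 against 310 CPM (−3.08, −3.63 to −2.56), and Ostn, the secreted peptide musclin, with 29 against 239 (−3.05, −3.67 to −2.45). Fhl1 stood at 183 against 818 CPM (−2.16, −2.42 to −1.90) and Ccdc85a at 163 against 801 (−2.30, −2.57 to −2.02). The ratios of these 4 genes in type IIb nuclei were −2.91, −2.96, −2.56 and −3.82. The predicted genes Gm10800 (−4.04) and Gm13490 (−3.04) were lower as well.

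Over all 8 libraries, with group and library set as terms, 0 of 6401 genes passed for Old minus Young (0%, edgeR), with 411 at an unadjusted p under 0.05 and 1 in DESeq2. For Running minus Sedentary 0 passed too (0%), with 195 at an unadjusted p under 0.05 and 0 in DESeq2. For Old minus Young the smallest p-values belonged to Gsn (1.79, SE 0.30), Cfd, the adipocyte-derived complement factor D (4.34, SE 0.78), and Lrrtm3 (2.10, SE 0.40). Each had an edgeR Benjamini-Hochberg adjusted p of 0.70. Cfd held only 5 UMIs in the Old and 1 in the Young 10x hybrids. For Running minus Sedentary the smallest p-values belonged to Ctsd, a lysosomal protease (2.09, SE 0.45), Pgam2, the muscle phosphoglycerate mutase (1.36, SE 0.31), and Sec14l5 (1.20, SE 0.30), none of which passed. Without the Old 10x library, which leaves 1 Old library of the second set, 612 genes passed for Old minus Young and 14 for Running minus Sedentary. Hybrids of the second library set entered this fit although the rule was met by a like share of its background nuclei in Old and Young. Against type IIb nuclei 12 of 12 named genes kept their direction in the second set and 11 passed. These 12 were picked for their large changes. Of all 834 genes called against type IIb nuclei, 276 were among the 381 called in the second set.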

How the data were processed

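The deposited files hold raw UMI counts per gene and nucleus, made by the authors with Cell Ranger 6.1.2 and mm10 for the 10x libraries and with PISA for the second set, per the submitters' processing notes and the methods, which also name Seurat 4.1.1. Whether intronic reads and strand were counted is not given in the sources used here. The members and gene lists were chosen with earlier results of these data known. Nuclei were filtered and classed as stated above, with no doublet removal. UMIs were summed per library and class and fitted with library as a block in edgeR 4.0.16 (R 4.3.3, quasi-likelihood F-test, Benjamini-Hochberg adjustment), with DESeq2 1.42.0 as an alternative, leaving out 13 mitochondrial and 97 ribosomal genes and the 4 genes of the rule. The 16 gene lists and 12 marker lists are described by counts and medians. Named genes were the 6 rising and 6 falling most among those past the threshold (adjusted p under 0.05) that moved alike in 4 of 4 libraries and averaged 5 or more in log2 CPM. Between groups they were the 6 largest ratios each way among genes with 100 UMIs over both sums. Some genes that this rule or the lists name are not reported here. Doublet scores came from Scrublet in scanpy 1.11.5 (Python 3.11.15). Intervals are exact (95%) and cover counting error only. The scripts were tested on simulated data. Alternatives were other filters, windows, thinning, denominators, tools and left-out libraries.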

Additional observations from a re-analysis of the deposited data

How the results depend on the processing

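The hybrid share of Old, Young, Running and Sedentary moved to 0.291%, 0.814%, 1.28% and 0.208% with at least 20 myosin UMIs, to 0.137%, 0.61%, 0.939% and 0.529% with Myh1 and Myh4 each at 40% to 60%, to 0.145%, 0.865%, 0.747% and 0.368% after background subtraction, and to 0.334%, 0.916%, 1.36% and 0.963% with myosin UMIs thinned to 8. Thinning nuclei to 2000 UMIs gave 1.29% in Sedentary. Shares were 0.801%, 1.66%, 2.73% and 2.92% of nuclei past the floors, 0.964%, 1.68%, 2.85% and 4.3% of hybrid, type IIx and type IIb nuclei, and 0.0875%, 0.741%, 0.887% and 0.861% below the type IIb median UMIs (the last 2 settings were chosen after seeing the data). Old was lowest in these settings except with 20 myosin UMIs, where Sedentary was. Genes called against type IIb nuclei (834) were 124 with no library block, 532 at 40% to 60%, 426 after background subtraction, 400 below the median UMIs, 381 in the second set and 500 to 652 leaving out 1 library. Against type IIx nuclei (124) they were 292 with no filter, 0 with no block, 39 thinned, 60 at 40% to 60%, 1 below the median UMIs and 46 to 92 leaving out 1 library. Off the midpoint (23) they were 37 in DESeq2, 74 with no filter, 0 with no block, 6 with 20 myosin UMIs, 4 at 40% to 60%, 8 after background subtraction, 158 in the second set and 6 to 26 leaving out 1 library. Against the equal mix (12) they were 5 in DESeq2, 48 with no filter, 0 with no block, 2 with 20 myosin UMIs, 19 without high doublet scores, 32 thinned, 4 at 40% to 60%, 6 after background subtraction, 28 below the median UMIs and 5 to 11 leaving out 1 library. Type IIx against type IIb nuclei (2566) gave 844 with no block, 1406 below the median UMIs and 341 in the second set. In the second set the type IIx sums came from Old (41 nuclei) and Young (39 nuclei) only, so its comparisons with type IIx nuclei do not cover all its libraries. Between Myh1- and Myh4-leaning hybrids (0) there were 14 with no filter, 2 without high doublet scores, 1 thinned, 1 in the second set and 0 to 11 leaving out 1 library. Over 8 libraries Old minus Young (0) gave 1 in DESeq2, 17 with no filter and 0 to 612 leaving out 1 library, and Running minus Sedentary (0) gave 8 with no filter and 0 to 14. The share difference ranged from −2.20 to 0.10 for Old minus Young and from −1.21 to 1.13 for Running minus Sedentary leaving out 1 library, the latter was −0.30 without the library set term, and with 20 myosin UMIs they were −1.88 and 1.90. Against type IIx nuclei the second set reversed Cadm1 (−0.18), Pla2g7 (−0.84), Fndc1 (0.07), Ptpn3 (0.42), Zfp827 (1.17), Zfp46 (0.87) and Agbl1 (0.83), and Fndc1 was 0.06 below the median UMIs. Of 559 values of named genes under alternatives 401 kept direction and side of the threshold, 150 kept direction only and 8 reversed. Of 1032 list medians 194 and of 124 10x group ratios 16 moved by more than the spread or interval. The causes were not tested. No paired analysis was possible because the labels give no replicate numbers, and the numbers used here only name the library set, which the fits over 8 libraries hold as a term. Depth limits the hybrids of Sedentary most, of which 22 of 108 held 20 or more myosin UMIs.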
